A study of Arabidopsis thaliana with 9 samples.

Results

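The genes described are 10 genes of Arabidopsis thaliana that encode enzymes methylating lysine 4 of histone H3 (H3K4) and the subunits that work with them. They were taken by locus from the 25320 genes of the deposited table, and no expression value was used to choose them. They are 7 SET-domain methyltransferases, ATX1, ATX2, ATX3, ATX4, ATX5, ATXR3 and ATXR7, and 3 subunits, WDR5A, RBL and TRO. All 10 were in the table, and all 10 passed the filter on low values, which kept 17740 genes with at least 1 FPKM in at least 3 of the 9 libraries. FPKM counts fragments for each kilobase of a gene's model and is divided by the size of the library.

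RNA was sequenced from stems and leaves of wild-type (WT) seedlings grown in soil for 2 weeks, in a series whose title names H3K4me3 and low temperature memory. The 3 groups had 3 libraries each. The control was taken on day 0 and is labelled as room temperature or before stress. The group called cold once here had 1 cycle of 6 h at 4 °C followed by 18 h at room temperature and was taken on day 1, and the group called repeated cold had 4 such cycles and was taken on day 4. A step of 6 h at 0 °C follows the cycles in the protocol, and whether plants were collected before or after it is not given in the labels. The day of collection differed between all 3 groups, while the labels give an age of 2 weeks for all plants. Plants taken on a later day may have been older, so that cold, age and the day of collection cannot be told apart. The labels do not say whether the replicates were separate sets of plants, and p-values measure the spread between these libraries, which may be technical.

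COMPASS is the complex, first described in yeast, that places methyl groups on H3K4. Trimethylation of this residue marks the start of transcribed genes. In its plant form a SET-domain enzyme works with a core made of WDR5A, the WD40-repeat protein that holds the complex to the histone tail, RBL, the plant counterpart of RbBP5, and ASH2R. The Arabidopsis gene TRO is this ASH2 counterpart. ATX1 and ATX2 are the trithorax-type enzymes, ATX3, ATX4 and ATX5 form a second group, and ATXR3 (also SDG2) is the enzyme on which most H3K4 trimethylation in the plant depends. ATXR7 (also SDG25) acts on H3K4 and is known for its role in keeping the flowering repressor FLC active.

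The 10 genes lie on all 5 nuclear chromosomes. The subunit genes are short, with gene models of 1570 to 2346 bases, and the methyltransferase genes long, with models of 3615 to 7855 bases, against a median of 1770 bases over the tested genes. RBL (AT3G21060) is on chromosome 3 from 7377391 to 7380213 on the plus strand. WDR5A (AT3G49660) is on chromosome 3 from 18413564 to 18415713 on the plus strand, and TRO (AT1G51450) on chromosome 1 from 19074328 to 19076545 on the plus strand. Positions are on TAIR10.1, whose starts and ends equal those of the deposited table for all 10 genes and for 99.98% of the 25099 loci found in both.

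In both comparisons with control the lowest and the highest change of the 10 genes were those of subunit genes. The sequences just upstream of the starts of the 3 subunit genes are shown for that reason. Each is printed on the gene's own strand, from 5′ to 3′, ending at the base before the annotated start, and comes from RefSeq's TAIR10.1 assembly. The window was 250 bases, and for RBL the part inside the neighbouring gene AT3G21055 was left off. Capitals mark matches to the motifs searched.
RBL, chr3:7377227-7377390, plus strand: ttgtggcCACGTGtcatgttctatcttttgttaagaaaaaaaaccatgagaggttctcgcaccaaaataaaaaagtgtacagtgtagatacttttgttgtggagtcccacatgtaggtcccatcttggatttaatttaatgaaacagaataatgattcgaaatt
WDR5A, chr3:18413314-18413563, plus strand: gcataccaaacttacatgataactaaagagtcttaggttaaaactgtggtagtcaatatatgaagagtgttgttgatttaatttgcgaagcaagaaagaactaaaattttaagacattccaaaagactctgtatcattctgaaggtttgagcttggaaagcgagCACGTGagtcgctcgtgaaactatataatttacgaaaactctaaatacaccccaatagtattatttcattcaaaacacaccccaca
TRO, chr1:19074078-19074327, plus strand: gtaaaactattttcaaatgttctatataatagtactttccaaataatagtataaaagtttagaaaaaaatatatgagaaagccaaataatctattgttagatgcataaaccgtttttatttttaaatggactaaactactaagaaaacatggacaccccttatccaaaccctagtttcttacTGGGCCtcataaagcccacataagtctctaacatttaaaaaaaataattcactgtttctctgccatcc
The capitals in RBL and WDR5A mark a G-box, CACGTG, and those in TRO a site II element, TGGGCC. The G-box of RBL lies 157 to 152 bases before the start and that of WDR5A 86 to 81 bases before it, and the site II element of TRO lies 68 to 63 bases before its start.

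The motifs were searched on both strands in the 250 bases before the start of 27443 genes. The G-box was found in 6.49% of these windows and the site II element in 13.7%. The core of the abscisic acid response element, ACGTG, which is contained in the G-box, was in 22.9% of windows and in those of ATX3, ATX5, WDR5A and RBL. The evening element AAAATATCT (2.36% of windows), the CCA1-binding site AAAAATCT (6.69%), the C-repeat core CCGAC (12%), to which the cold factors of the CBF family bind, and the telo-box AAACCCTAA (2.61%) matched no window of the 10 genes. The motif counts describe letters only, and binding was not measured. The G-box was added to the search after the sequences had been seen.

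RBL was lower in both cold groups, and it was the 1 gene of the 10 that passed the test in either comparison with control. Its level was 7.88, 7.33 and 8.36 FPKM in control, 3.97, 3.79 and 4.11 FPKM in cold once, and 5.51, 3.84 and 5.79 FPKM in repeated cold. All 6 cold libraries lay under the lowest control library, and the cold groups overlapped because repeated cold replicate 2 sat at the level of cold once. Behind these values were 397, 345 and 415 reads in control, 188, 182 and 196 in cold once, and 237, 162 and 282 in repeated cold, a counting error of 4.91 to 7.86% per library.

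RBL averaged 3.96 ± 0.160 FPKM in cold once and 7.86 ± 0.515 FPKM in control (SD, n = 3 each), a ratio of 0.503. On the scale of log2(FPKM + 1), used for all changes here, it fell by 0.84 ± 0.14 (SE, 95% interval -1.14 to -0.53, limma adjusted p = 0.000865). It averaged 5.04 ± 1.05 FPKM in repeated cold against 7.86 ± 0.515 FPKM in control, a ratio of 0.642. That fall was 0.57 ± 0.14 (interval -0.87 to -0.26, limma adjusted p = 0.00969). Between the cold groups RBL was 0.27 ± 0.14 higher in repeated cold than in cold once, which did not pass the test (interval -0.03 to 0.58, limma adjusted p = 0.302). Both calls against control held in all 25 settings of the analysis, with changes of -1.02 to -0.52 for cold once and -0.72 to -0.36 for repeated cold. The changes can be set against the shift of the transcriptome as a whole: the median of all tested genes lay at -0.16 in cold once and -0.10 in repeated cold relative to control, and relative to these medians RBL lay at -0.67 and -0.47.

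**Figure D1:**
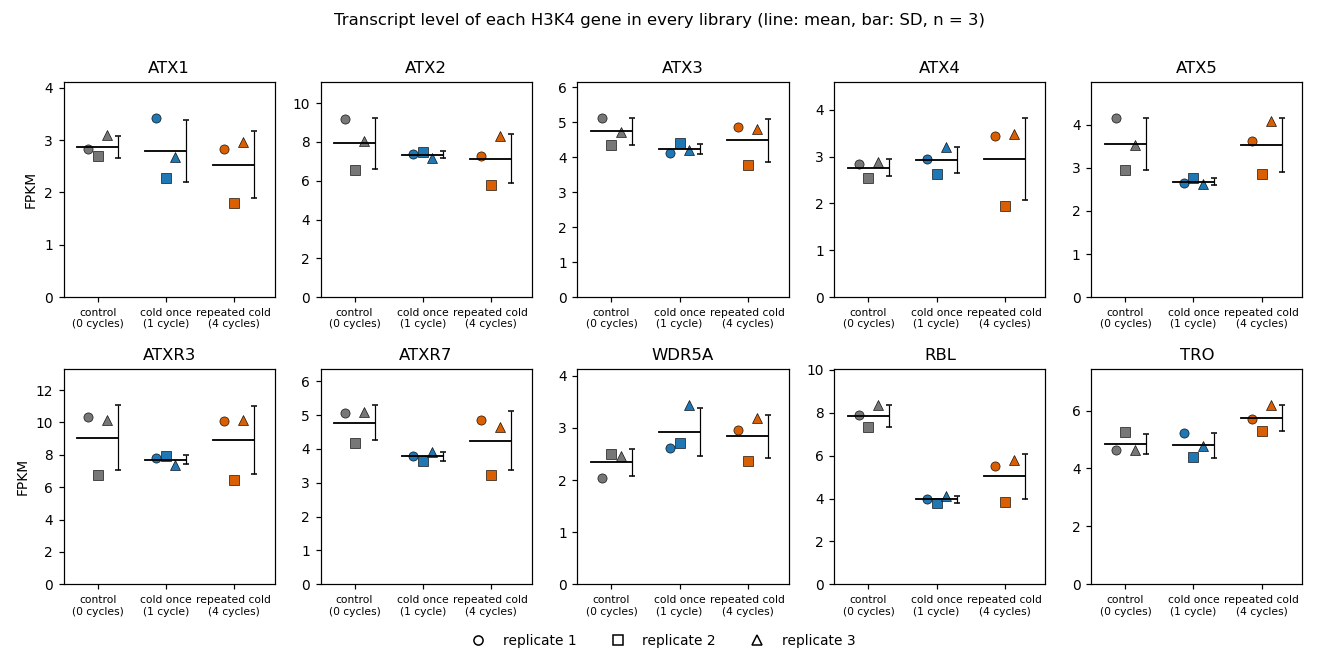
Level of each of the 10 genes in FPKM (y axis, from 0, own scale per panel) in control, cold once and repeated cold (x axis), 1 point per library with its shape giving the replicate, and the mean and SD of 3 libraries. RBL shows 3 control libraries between 7.33 and 8.36 FPKM and 6 cold libraries between 3.79 and 5.79 FPKM, while the long methyltransferase genes share low points at replicate 2 of control and of repeated cold.

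Falls of this kind were common in these plants. Of the 17740 tested genes, 52.3% passed between cold once and control (18.7% higher, 33.6% lower), and 1 of the 10 H3K4 genes. In repeated cold against control 39.5% of tested genes were called (14.6% higher, 24.9% lower), and again 1 of the 10. The share called among the 10 genes was thus below the background in both. In repeated cold against cold once 1.27% of genes were called (0.738% higher, 0.536% lower) and none of the 10, with none under an unadjusted p of 0.05. The F-test for any difference among the 3 groups called 49.4% of genes and, of the 10, RBL (F = 19.9, limma adjusted p = 0.00234, rank 3465 of the tested genes by F). For the other 9 its adjusted p lay between 0.156 and 0.941. Relative to control the median change of the 10 genes was -0.11 in cold once and -0.05 in repeated cold, and it was 0.09 between the cold groups (repeated over once). The medians of all tested genes were -0.16, -0.10 and 0.06 in the same order. When libraries were scaled by the median of ratios instead, the share of lower calls among all calls in cold once against control was 49.3% in place of 64.3%, and in repeated cold against control 49.1% in place of 63%. The median of all genes was then -0.0048 and 0.0068, a shift of more than 0.1 on the log2 scale in both comparisons.

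WDR5A, the histone-tail reader of the core, was not called in either cold group. It was at 2.05, 2.51 and 2.47 FPKM in control, 2.62, 2.71 and 3.44 FPKM in cold once, and 2.95, 2.37 and 3.19 FPKM in repeated cold. All 3 cold once libraries lay above the highest control library, the lowest of them narrowly, and repeated cold overlapped both. The difference was 0.23 ± 0.13 in cold once against control (interval -0.07 to 0.53, limma adjusted p = 0.179) and 0.20 ± 0.13 in repeated cold against control (adjusted p = 0.271), and neither passed. With median-of-ratios scaling, quantile normalization or the length trend removed, the cold once difference passed (0.36 to 0.45, limma adjusted p = 0.0145 to 0.0397). WDR5A was the gene with the fewest reads, 67 to 110 per library, and a counting error of 9.53 to 12.2%.

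TRO was at 4.64, 5.26 and 4.64 FPKM in control, 5.22, 4.39 and 4.77 FPKM in cold once, and 5.72, 5.29 and 6.20 FPKM in repeated cold. The 3 repeated cold libraries were above all libraries of the other groups, though its replicate 2 (5.29 FPKM) was barely above control replicate 2 (5.26 FPKM). The difference from control was -0.01 ± 0.10 in cold once (interval -0.25 to 0.22, limma adjusted p = 0.925) and 0.20 ± 0.10 in repeated cold (interval -0.03 to 0.44, limma adjusted p = 0.152). The repeated cold difference passed under the same 3 settings as for WDR5A (0.30 to 0.35, limma adjusted p = 0.0188 to 0.0418). TRO was 0.22 ± 0.10 higher in repeated cold than in cold once (interval -0.02 to 0.45, limma adjusted p = 0.287), which did not pass.

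Ratios of 2 genes within a library do not depend on a scaling factor common to the library. They restate the levels above and are given as a description. RBL over WDR5A was 3.85, 2.92 and 3.39 in control, 1.52, 1.40 and 1.19 in cold once, and 1.87, 1.62 and 1.81 in repeated cold. The 3 groups did not overlap: control was highest and cold once lowest. RBL over TRO was 1.70, 1.40 and 1.80 in control, 0.760, 0.864 and 0.860 in cold once, and 0.963, 0.727 and 0.934 in repeated cold. In control there was more RBL than TRO RNA per length in each library, and in all 6 cold libraries there was less. WDR5A over TRO overlapped between all groups and lay between 0.441 and 0.722. With 3 libraries against 3 the exact two-sided permutation test cannot give less than p = 0.1, which each separated pair of groups reached (adjusted p = 0.267 over 24 comparisons of ratios). The pairs of genes were chosen after their values had been seen.

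**Figure D2:**
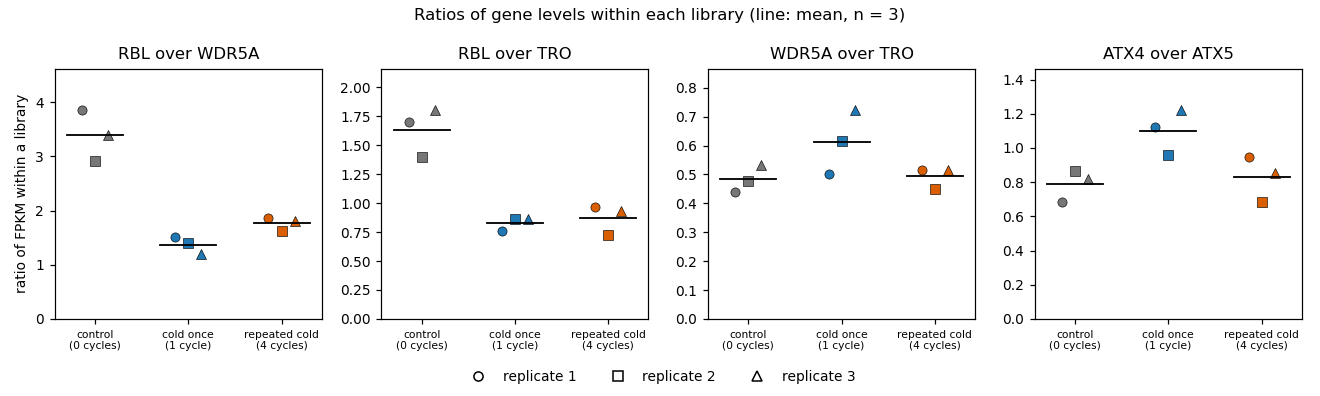
Ratio of FPKM of 2 genes within the same library (y axis, from 0, no unit) in control, cold once and repeated cold (x axis), 1 point per library. RBL over WDR5A lies between 2.92 and 3.85 in control and between 1.19 and 1.87 in the 6 cold libraries, and WDR5A over TRO overlaps between all groups.

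The 7 methyltransferase genes gave no called change in any of the 3 comparisons. ATXR3 had the highest mean of the 10 genes in each group, with 10.4, 6.74 and 10.1 FPKM in control, 7.77, 7.96 and 7.39 FPKM in cold once, and 10.1, 6.47 and 10.2 FPKM in repeated cold. Its lowest values were in replicate 2 of control and of repeated cold, and the groups overlapped. The difference was -0.19 ± 0.19 in cold once against control (interval -0.62 to 0.24, limma adjusted p = 0.433) and -0.03 ± 0.19 in repeated cold against control (interval -0.46 to 0.41, adjusted p = 0.928). On the scale of FPKM + 1 the lower end of the interval lay at 0.651 times control in cold once and at 0.728 times control in repeated cold.

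ATX1 and ATX2 are a closely related pair. ATX1 was at 2.83, 2.69 and 3.10 FPKM in control, 3.43, 2.27 and 2.68 FPKM in cold once, and 2.83, 1.80 and 2.96 FPKM in repeated cold. ATX2 was at 9.20, 6.56 and 8.03 FPKM in control, 7.40, 7.49 and 7.17 FPKM in cold once, and 7.27, 5.80 and 8.32 FPKM in repeated cold. All groups overlapped for both genes, with differences from control of -0.04 and -0.15 for ATX1 and of -0.09 and -0.14 for ATX2 in cold once and repeated cold (limma adjusted p = 0.484 to 0.85). ATX1 over ATX2 within a library was 0.303 to 0.463 in all 9 libraries, so that ATX2 gave more RNA per length than ATX1 in each.

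ATX5 was at 4.16, 2.95 and 3.52 FPKM in control, 2.65, 2.76 and 2.62 FPKM in cold once, and 3.62, 2.85 and 4.09 FPKM in repeated cold. The 3 cold once libraries lay below every library of the other groups, with an SD of 0.0749 FPKM. The difference was -0.30 ± 0.14 in cold once against control (interval -0.61 to 0.02, limma adjusted p = 0.101) and 0.29 ± 0.14 in repeated cold against cold once (adjusted p = 0.287), and neither passed. ATX5 overlaps AT5G53440 on the opposite strand by 979 bases, and the deposited values are not stated to use strand, so reads of the overlap could come from either gene. AT5G53440 was at 7.04 to 10.5 FPKM in control, 9.39 to 10.8 FPKM in cold once and 8.665 to 12.64 FPKM in repeated cold. The part of such reads in the ATX5 values was not tested.

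ATX3 and ATX4, the relatives of ATX5, overlapped between all groups. ATX4 was at 2.85, 2.55 and 2.89 FPKM in control, 2.96, 2.64 and 3.20 FPKM in cold once, and 3.43, 1.94 and 3.49 FPKM in repeated cold. ATX3 was at 5.13, 4.35 and 4.72 FPKM in control, 4.12, 4.40 and 4.19 FPKM in cold once, and 4.86, 3.77 and 4.81 FPKM in repeated cold. ATX4 over ATX5 was 0.684, 0.866 and 0.821 in control, 1.12, 0.956 and 1.22 in cold once, and 0.949, 0.681 and 0.852 in repeated cold. ATX3 over ATX5 was 1.23, 1.48 and 1.34 in control, 1.56, 1.59 and 1.60 in cold once, and 1.34, 1.32 and 1.18 in repeated cold. Cold once was higher than the other groups in both ratios without overlap (exact permutation p = 0.1, adjusted p = 0.267), and repeated cold overlapped control.

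ATXR7 was at 5.08, 4.17 and 5.09 FPKM in control, 3.78, 3.64 and 3.92 FPKM in cold once, and 4.85, 3.24 and 4.64 FPKM in repeated cold. As for ATX5, all cold once libraries lay under all control libraries, and here repeated cold replicate 2 was lower still. The difference was -0.27 ± 0.14 in cold once against control (interval -0.58 to 0.05, limma adjusted p = 0.134). In all, the libraries of cold once and control did not overlap for 4 of the 10 genes, 1 higher (WDR5A) and 3 lower (ATX5, ATXR7, RBL), beside 64.6% of tested genes (24% higher, 40.6% lower). Between repeated cold and control 1 was higher (TRO) and 1 lower (RBL), beside 50.7% of tested genes (19% higher, 31.7% lower). Between repeated cold and cold once 2 were higher (ATX5, TRO) and none lower, beside 23.8% of tested genes (13.9% higher, 9.92% lower).

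**Figure D3:**
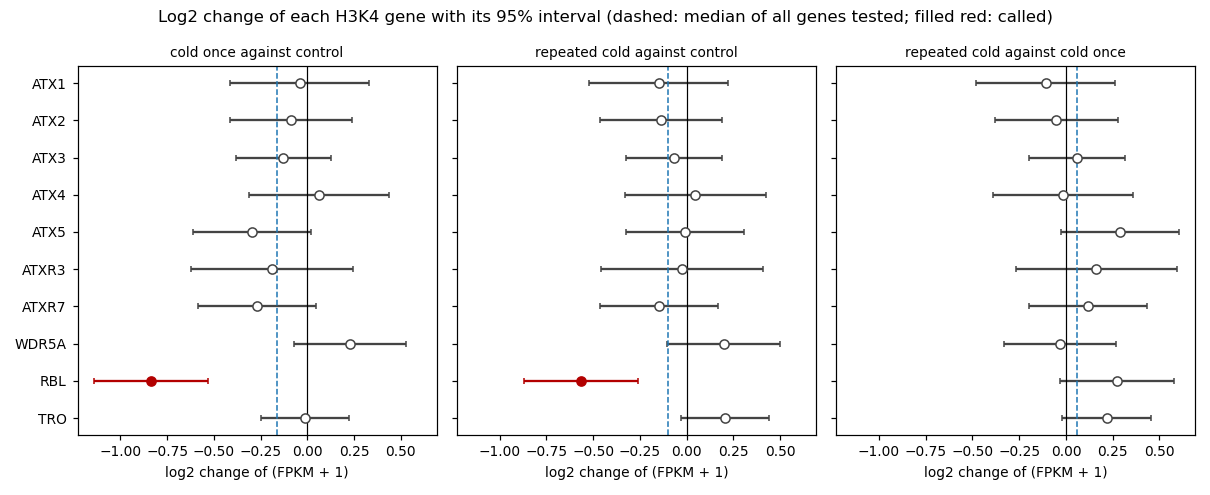
Change of each gene on the log2(FPKM + 1) scale (x axis) in each cold group against control and between the cold groups (repeated over once), with the 95% interval of the model. The dashed line marks the median change of all 17740 tested genes, and RBL at -0.84 and -0.57 is the gene whose interval stays clear of 0 in both comparisons with control.

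Within control and within repeated cold, each of the 7 methyltransferase genes was lowest in replicate 2. In control replicate 2 and in repeated cold replicate 2 all 7 lay below their group's mean, by a median of 0.16 and 0.29 on the log2 scale. In the same libraries the quintile of tested genes with the longest models deviated by a median of -0.15 and -0.23, and the quintile with the shortest by 0.11 and 0.16. The cold once libraries stayed within 0.0414 of 0 in both quintiles, while single methyltransferase genes deviated there by -0.20 to 0.23. The part of this length trend in the methyltransferase values was not tested. With both libraries left out, an alternative chosen after seeing the data, 4 of the 10 genes were called lower in cold once against control: RBL, ATX5 (-0.39), ATXR3 (-0.37) and ATXR7 (-0.35, limma adjusted p = 0.00654 to 0.0186 for these 3). With the length trend removed from all libraries, another alternative chosen after seeing the data, these 3 were smaller and not called: ATX5 at -0.17, ATXR3 at -0.03 and ATXR7 at -0.14 (limma adjusted p = 0.144 to 0.754). Without repeated cold replicate 2 alone, ATXR7 was called at the same difference of -0.27 (adjusted p = 0.0448).

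**Figure D4:**
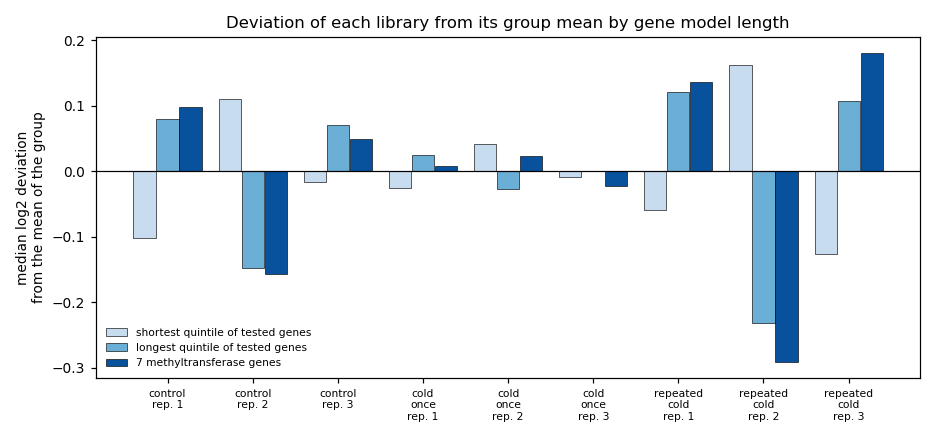
Median deviation of each library from its group's mean on the log2(FPKM + 1) scale (y axis) by library (x axis), for the quintile of tested genes with the shortest models, the quintile with the longest, and the 7 methyltransferase genes. Control replicate 2 and repeated cold replicate 2 are low for long genes (-0.15 and -0.23) and for the methyltransferases (-0.16 and -0.29) and high for short genes.

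The methyltransferases can also be set beside genes as long as they are. Of the 1131 tested genes with models between the shortest and the longest of the 7 methyltransferases, 31.4% were called in cold once and 17.5% in repeated cold relative to control, with median changes of -0.15 and -0.04. Between the cold groups 0.265% of them were called, at a median of 0.09 (repeated over once). Summed over the 7 methyltransferases the level was 39.6, 30.0 and 37.5 FPKM in control, 32.1, 31.2 and 31.2 FPKM in cold once, and 37.0, 25.9 and 38.5 FPKM in repeated cold. The sums of cold once lay between those of control replicate 2 and the other control libraries, so the groups overlapped. ATXR3 made up 22.4 to 27.3% and ATX2 19.7 to 24% of this sum in the 9 libraries, and ATX1 6.96 to 10.7%.

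By mean level per length, the order in control was ATXR3 (9.07 ± 2.02 FPKM), ATX2 (7.93 ± 1.32), RBL (7.86 ± 0.515), TRO (4.85 ± 0.356), ATXR7 (4.78 ± 0.528), ATX3 (4.73 ± 0.387), ATX5 (3.54 ± 0.605), ATX1 (2.87 ± 0.208), ATX4 (2.76 ± 0.182) and WDR5A (2.34 ± 0.257; SD, n = 3). The length trend of control replicate 2 enters these means, and its part in the order was not tested. The libraries of neighbours in this order overlapped except between RBL and TRO, ATX3 and ATX5, and ATX4 and WDR5A. In cold once RBL stood at place 5, below TRO and ATX3, and in repeated cold at place 4, below TRO. All 10 were genes of low to middling level, with means over the 9 libraries between the 17.2 and the 45.2 percentile of tested genes. In bulk tissue, fewer cells of a type and less RNA per cell cannot be told apart.

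The tested genes whose pattern over the 9 libraries was most like that of RBL were ATM1, EBM and ARI1, with root mean square differences of 0.05, 0.06 and 0.06 between mean-centred log2 values. ATM1 averaged 17.3 FPKM in control, 9.80 FPKM in cold once and 11.8 FPKM in repeated cold. EBM averaged 26.2, 15.2 and 18.2 FPKM and ARI1 10.8, 5.97 and 7.58 FPKM in the same order. RBL also overlaps NADK1, on the opposite strand, by 23 bases. NADK1 was at 12.9 to 13.6 FPKM in control, 13.7 to 17.2 FPKM in cold once and 9.664 to 13.54 FPKM in repeated cold. The part of reads from this overlap in the RBL values was not tested.

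Among other genes of COMPASS-like and SET-domain proteins, 10 of 12 were tested. In cold once 1 rose and 4 fell, beside 18.7% and 33.6% of all tested genes. In repeated cold 1 rose and 2 fell, beside 14.6% and 24.9% of all tested genes. The riser was ULT1, a SAND-domain protein that works with ATX1 as a trithorax factor at flower genes. It was at 1.04, 1.33 and 1.46 FPKM in control, 6.50, 4.20 and 4.33 FPKM in cold once, and 2.02, 3.92 and 2.61 FPKM in repeated cold, with no overlap between control and either cold group. It rose by 1.38 ± 0.21 in cold once (limma adjusted p = 0.000542) and by 0.73 ± 0.21 in repeated cold (adjusted p = 0.02). The repeated cold call was lost without control replicate 1 (0.65, adjusted p = 0.0681) or repeated cold replicate 2 (0.54, 0.0523), and with both libraries low for long genes left out (0.56, 0.0897).

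The SET-domain gene ASHH3 was at 12.3, 12.1 and 12.9 FPKM in control, 6.13, 7.87 and 8.49 FPKM in cold once, and 9.02, 7.33 and 8.39 FPKM in repeated cold, so that all cold libraries were below control. It fell by 0.67 ± 0.13 in cold once and by 0.54 ± 0.13 in repeated cold (limma adjusted p = 0.00195 and 0.00843). S2LA, a relative of the yeast COMPASS subunit Swd2, fell by 0.49 ± 0.11 in cold once and by 0.37 ± 0.11 in repeated cold (limma adjusted p = 0.00525 and 0.027), and its relative S2LB by 0.42 ± 0.13 in cold once (adjusted p = 0.0246). The cold once call of S2LA was lost with quantile normalization (-0.24, adjusted p = 0.121). Its repeated cold call, the call of S2LB and that of WDR5B, named beyond the rule after its values were seen, were lost under other scalings or without single libraries. Under either scaling 2 of the 10 were called lower in cold once and 2 higher.

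The PAF1 complex recruits COMPASS to transcribed genes in yeast. Of its 6 genes, CDC73 fell by 0.55 ± 0.11 in cold once and by 0.51 ± 0.11 in repeated cold (limma adjusted p = 0.00206 and 0.00458), and VIP5 by 0.46 ± 0.09 in cold once (adjusted p = 0.00251). The call of VIP5 was lost with quantile normalization (-0.23, adjusted p = 0.0626). None rose, and 2 of the 6 fell in cold once and 1 in repeated cold, beside 33.6% and 24.9% of all tested genes. With the 2 libraries low for long genes left out, 4 of the 6 were called lower in cold once. The FRIGIDA complex activates FLC. Of its 5 genes 4 fell in cold once and 2 in repeated cold, beside 33.6% and 24.9% of all tested genes. Under either scaling or with the length trend removed, 3 of the 5 were called lower in cold once. FES1 averaged 2.28 ± 0.499 FPKM in cold once and 5.10 ± 0.591 FPKM in control, a fall of 0.90 ± 0.14, and 2.80 ± 0.215 FPKM in repeated cold, a fall of 0.68 ± 0.14 (limma adjusted p = 0.000563 and 0.00395). FRL1 fell by 0.82 ± 0.13 and 0.60 ± 0.13 (adjusted p = 0.000824 and 0.00625), SUF4 by 0.54 ± 0.13 in cold once (adjusted p = 0.00768) and FRI by 0.35 ± 0.11 in cold once (adjusted p = 0.0277), a call that was lost under either scaling (0.113 and 0.306) and when replicate 2 or 3 of control or of cold once was left out. The median change of the FRIGIDA genes was -0.54 in cold once, against -0.16 over all genes.

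Genes for proteins that read or remove the mark were called lower at shares near or under those of all tested genes, 33.6% in cold once and 24.9% in repeated cold. Of 12 tested genes for H3K4me3 readers 4 fell in cold once and 2 in repeated cold, among them ING1, a PHD-finger protein, by 0.64 ± 0.12 and 0.41 ± 0.12 (limma adjusted p = 0.00167 and 0.0203). AL1, ING2 and AL4 fell by 0.41, 0.37 and 0.43 in cold once (adjusted p = 0.00455 to 0.0153), and 1 of 12 was called under median-of-ratios scaling. None rose, though 1 reader gene was called higher in cold once with the length trend removed. In repeated cold the calls of ING1 and AL4 were both lost under either scaling (adjusted p = 0.0732 to 0.162). Of 9 tested demethylase genes, JMJ18 fell by 0.64 ± 0.14 and JMJ14 by 0.50 ± 0.12 in cold once (limma adjusted p = 0.0041 and 0.00593). Their falls of 0.41 and 0.39 in repeated cold lost the call under either scaling (adjusted p = 0.0594 to 0.113). With the 2 libraries low for long genes left out, 6 of the 9 demethylase genes were called lower in cold once.

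Of 12 genes at which ATX1, ATXR3 or H3K4me3 memory was described in Arabidopsis, 10 were tested. In cold once 3 rose and 2 fell, beside 18.7% and 33.6% of all tested genes. In repeated cold 1 rose and 2 fell, beside 14.6% and 24.9% of all tested genes. XTH33, a cell wall enzyme and target of ATX1, averaged 11.5 ± 8.83 FPKM in cold once and 0.257 ± 0.246 FPKM in control, a rise of 3.12 ± 0.47 (limma adjusted p = 0.000561). NCED3, the abscisic acid synthesis enzyme at which ATX1 acts in drought, averaged 10.6 ± 2.71 FPKM in cold once and 4.49 ± 1.01 FPKM in control, a rise of 1.07 ± 0.22, and it rose by 1.17 ± 0.22 in repeated cold (adjusted p = 0.00307 and 0.00289). RD29A, a cold and drought effector, rose by 1.49 ± 0.29 in cold once (adjusted p = 0.00217). It averaged 48.2 ± 3.64 FPKM in repeated cold and 164 ± 31.4 FPKM in cold once, a fall of 1.73 ± 0.29 (adjusted p = 0.0314) whose call was lost without single libraries (control replicate 3, cold once replicate 1 or 3, or any of repeated cold, adjusted p = 0.0529 to 0.112).

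P5CS1, a proline synthesis enzyme with dehydration memory, fell by 1.10 ± 0.21 in cold once and by 1.36 ± 0.21 in repeated cold (limma adjusted p = 0.00187 and 0.000963). RAB18, a dehydrin, fell by 0.96 ± 0.23 in repeated cold (adjusted p = 0.0104) and by 0.79 ± 0.23 in cold once (adjusted p = 0.0179), where the call was lost under median-of-ratios scaling and without 1 of 4 libraries (control replicate 1 or 3, cold once replicate 1 or 3). FLC was under 0.5 FPKM in all 9 libraries. Genes of this list were called in both directions, as were the tested genes in general. H3K4 methylation itself was not measured in these files.

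Markers of other tissues moved with some libraries. The 6 leaf markers, which check the labelled tissue, summed to 28790 to 30380 FPKM in control, 34740 to 39030 FPKM in cold once and 32070 to 38390 FPKM in repeated cold, so that both cold groups lay above control without overlap. Of the 6, 4 were called higher and 1 lower in each cold group than in control. Of all tested genes, 18.7% were called higher and 33.6% lower in cold once, and 14.6% and 24.9% in repeated cold. RBCS1B, a small subunit of Rubisco, rose by 2.47 ± 0.14 in cold once and by 2.34 ± 0.14 in repeated cold (limma adjusted p = 3.36e-06 and 8.33e-06), and RCA, CA1 and RBCS1A rose by 0.82 to 1.12. With no filter on low values RBCS1A lost its call in cold once and in repeated cold (limma adjusted p = 0.0676 and 0.149). CAB1, a chlorophyll-binding protein, fell by 0.44 and 0.52 (adjusted p = 0.0278 and 0.0176), calls that were lost with median-of-ratios scaling (0.217 and 0.0786) and, in cold once, without any single library of control or cold once. The part of these markers in the changes of the 10 genes was not tested. The 5 flower genes SEP1, SEP2, SEP3, AP3 and PI summed to 7.82 to 33.8 FPKM in control and 1.62 to 5.84 FPKM in cold once, and to 0.680, 23.6 and 0.985 FPKM in repeated cold, where replicate 2 stood apart. AP3 was at 0 in cold once replicate 1 and in repeated cold replicates 1 and 3. SEP3 fell by 2.07 in cold once (limma adjusted p = 0.0282), a call that ended (0.0651 to 0.101) when replicate 2 or 3 of control, or replicate 1 or 3 of cold once, was left out. No flower gene was called in repeated cold, and 4 of the 5 were called lower there with the 2 libraries low for long genes left out. With a flower score in the model RBL kept its calls, and ATX5 (-0.47) and ATXR7 (-0.46) were called lower in cold once (limma adjusted p = 0.0308 and 0.0314).

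The 9 genes of dividing cells summed to 52.6 to 73.4 FPKM in control, 69.7 to 81.0 FPKM in cold once and 60.8 to 81.6 FPKM in repeated cold, with MCM5 and PCNA1 higher in cold once (0.55 and 0.60, limma adjusted p = 0.0083 and 0.0198). MCM5 lost its call with the flower score in the model (0.43, adjusted p = 0.0599). PCNA1 lost its call without cold once replicate 1 or 2 (0.052 and 0.06), and 4 of the 9 were called higher under either scaling. Of 4 root markers 2 were in the table, and they did not move together. NRT2.1 was 1.02 and 0.94 higher in cold once and repeated cold than in control (limma adjusted p = 0.00557 and 0.0117), at 1.31 FPKM in cold once and 0.138 FPKM in control. BGLU23 was not called, at 25.13 to 62.85 FPKM in control, 17.63 to 62.11 FPKM in cold once and 9.763 to 36.83 FPKM in repeated cold.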

How the data were processed

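RNA from stems and leaves of 9 samples was sequenced. Libraries were made with a SMARTER mRNA-Seq kit from 0.5 µg of RNA, per the labels' protocols. The deposited table holds FPKM values computed by the authors for 25320 genes, 1 column per library. The submitters' processing notes list TopHat, Cufflinks and Cuffdiff, with no version or order. Aligner settings, strandedness and genome build are not given in the sources used here. Values gave whole reads within 0.01 read for 25267 genes at the annotated length and for 53 at a fitted one, at depths of 17.98 to 21.49 M reads per library. A value of 0 allows up to 3 reads (0.14 to 0.167 FPKM for 1 kb). Counting errors cover counting only.

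FPKM values were used as log2(FPKM + 1). Limma 3.58.1 in R 4.3.3 was fitted with 1 mean per group over all 9 libraries, with eBayes using a trend (prior df 3.21), and Benjamini-Hochberg adjustment over 17740 genes. An adjusted p under 0.05 was called. The pseudocount makes changes of low genes too small. Python 3.11.15 with scipy 1.17.1 gave permutation tests. The 10 genes, the lists, the tests and the naming rule were chosen with earlier results of these data known. The rule named the 10 genes, up to 4 called genes per list and comparison by smallest p, and the 3 genes most like the one with the largest F. The lists were the COMPASS relatives, PAF1 and FRIGIDA complexes, readers, demethylases, described target genes and markers of leaf, root, flower and dividing cells. The code was checked on simulated data. Alternatives covered scaling, filter, pseudocount, model, covariates, left-out libraries, gene length and limma's voom on the recovered reads.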

Additional observations from a re-analysis of the deposited data

How the results depend on the processing

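RBL was called against control in each of the 25 settings run, and in none in repeated cold against cold once (0.16 to 0.42, adjusted p = 0.0643 to 0.561). Of 926 alternative values for the single genes, 851 kept direction and side of the threshold, 19 newly passed it and 56 changed sign, none of these called. The count of the 10 genes called in cold once against control was 2 (WDR5A added) with median-of-ratios scaling, with quantile normalization and with the length trend removed, 3 with a flower score, 4 with both libraries low for long genes left out, and 1 to 2 without single libraries. In repeated cold against control it was 2 (TRO added) under both scalings and with the length trend removed. By the F-test it was 3 with quantile normalization or the length trend removed and 4 with both libraries left out. The cause was not tested. Leaving out both libraries, removing the length trend and voom were chosen after seeing the data.

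Between cold once and control, uncalled values changed sign as follows. With median-of-ratios scaling ATX1 was at 0.095, ATX2 at 0.077, ATX3 at 0.022 and TRO at 0.14. With quantile normalization ATX1 was at 0.19, ATX2 at 0.15, ATX3 at 0.13, ATXR3 at 0.038 and TRO at 0.24. With the length trend removed ATX1 was at 0.076, ATX2 at 0.039 and TRO at 0.15. With the flower score ATX4 was at -0.20. With the dividing cell score ATX4 was at -0.039. With both libraries left out TRO was at 0.036. Without single libraries ATX1 ran from -0.16 to 0.060, ATX2 from -0.20 to 0.016 and TRO from -0.066 to 0.038. Between repeated cold and control, uncalled values changed sign as follows. With quantile normalization ATX2 was at 0.0007, ATX3 at 0.070, ATX5 at 0.12 and ATXR3 at 0.11. With median-of-ratios scaling ATX3 was at 0.029, ATX5 at 0.084 and ATXR3 at 0.082. With the flower score ATX4 was at -0.17. With the dividing cell score ATX4 was at -0.029. With both libraries left out ATX5 was at 0.0057. With the length trend removed ATX5 was at 0.037 and ATXR3 at 0.017. Without single libraries ATX1 ran from -0.24 to 0.0092, ATX3 from -0.12 to 0.028, ATX4 from -0.058 to 0.25, ATX5 from -0.11 to 0.10 and ATXR3 from -0.20 to 0.17. Between repeated cold and cold once, uncalled values changed sign as follows. With both libraries left out ATX1 was at 0.050, ATX2 at 0.072, ATX4 at 0.18 and WDR5A at 0.059. With quantile normalization ATX3 was at -0.060. With the length trend removed ATX3 was at -0.0096. With the flower score ATX4 was at 0.025. With the dividing cell score ATX4 was at 0.010. Without single libraries ATX1 ran from -0.21 to 0.050, ATX2 from -0.16 to 0.072, ATX4 from -0.12 to 0.18 and WDR5A from -0.098 to 0.061.

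Genes called in repeated cold against cold once numbered 226, and 369 with median-of-ratios scaling, 112 with no filter, 5 with only these groups in the fit, 101 with the dividing cell score, 788 with the length trend removed, 130 with both libraries left out and 17 to 212 without single libraries. Replicate numbers were not used as pairs in the main fit, and whether they pair the samples was not settled. Same-numbered libraries deviated together with correlations of 0.0287 to 0.225 in cold once against control (other numbers -0.216 to 0.0104). The correlations were 0.0358 to 0.463 in repeated cold against control (other numbers -0.444 to 0.126). Between repeated cold and cold once they were -0.108 to 0.204 (other numbers -0.305 to 0.2). With the replicate number as a block 704 genes were called in repeated cold against cold once. Against control 10054 were called in cold once (9278 without the block) and 7988 in repeated cold (7013 without it). RBL was called against control as without the block. The planned edgeR and DESeq2 alternatives were not run because the deposited unit is FPKM. A minimum of 5 FPKM left ATX2, ATXR3, RBL and TRO tested. Depth limits WDR5A most, with 67 to 110 reads.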
